A study of Mus musculus with 8 samples.

Results

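Round spermatids whose only Miwi allele besides a null allele was a knock-in allele (MIWI -/KI) were set against round spermatids that kept a wild-type copy beside the null (MIWI +/-). The members were chosen by their array titles and are 4 of the 8 arrays of the series, replicates 1 and 2 of each genotype. Both groups therefore carry a null allele and differ in whether the other allele is wild-type or knock-in. The other 4 arrays, 2 of MIWI -/- with null alleles only and 2 of MIWI +/KI, with wild-type and knock-in together, entered the fit for the spread between replicates and serve as reference points. All mice were adult C57BL/6 animals that had received no specific treatment. What the knock-in changes is not described in the labels, and the series title is about the catalysis by MIWI and LINE1 silencing. Testes were digested with collagenase, the cells were separated on a gradient of bovine serum albumin, and total RNA of the pooled spermatid fractions was hybridised to Affymetrix arrays. The labels call the replicates biological but do not say whether each came from 1 animal or from a pool. The p-values reflect how far preparations of a genotype differ, pooled over all 4 genotypes and not for the compared genotypes alone.

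MIWI is the PIWI protein of pachytene spermatocytes and round spermatids. It binds piRNAs, the small RNAs that guide PIWI proteins to transposon and messenger RNA, and some PIWI proteins can cut the RNA they pair with. Round spermatids are the early haploid cells of sperm formation. They switch on a late programme of genes, many of them under the activator CREM, whose products package the genome with transition proteins and protamines and build the sperm tail. Male mice without MIWI are known to be sterile, with germ cells that stop as round spermatids.

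The 4 arrays had median intensities between 66.6 and 71.8, and having only 2 arrays per genotype limits the precision. Across all transcript clusters the log2 values of the MIWI +/- arrays correlated with r = 0.989 and those of the MIWI -/KI arrays with r = 0.970. The MIWI -/KI arrays thus stood apart from each other: 224 genes differed between them by at least 2-fold, 173 of them higher in replicate 2, against 7 genes between the MIWI +/- arrays. On the first principal component over all 8 arrays, which held 40.3% of the variance, the MIWI +/- arrays lay at -35.0 and -38.9 and the MIWI -/KI arrays at 15.3 and 57.9. Markers of round spermatids, 20 genes measured, summed to an intensity of 28320 to 29060 in MIWI +/- and 26530 to 28900 in MIWI -/KI, with a median mean log2 intensity of 10.28. The median was 10.77 for elongating spermatid markers, 9.49 for spermatocyte markers and 6.36 to 6.79 for the lists of spermatogonia, Sertoli, Leydig, stromal and blood markers. These levels come from different probes and do not give the share of each cell type in the fraction.

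Piwil1, the gene of MIWI, was read at 389 and 371 on the MIWI +/- arrays and at 672 and 696 on the MIWI -/KI arrays. It was read at 196 and 151 in MIWI -/- and at 679.8 and 749 in MIWI +/KI. Every array with a knock-in allele lay above every array without one. Piwil1 was 1.8-fold higher in MIWI -/KI than in MIWI +/- (log2 difference 0.85, SE 0.17, adjusted p = 0.0275, 2 arrays per genotype), and this call was lost without either MIWI +/- array, without MIWI -/KI replicate 2 and without either MIWI +/KI array. The sources used here do not place the probes relative to the deleted part of the gene.

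Of 19938 genes, 1243 (6.23%) passed an adjusted p of 0.05 in MIWI -/KI against MIWI +/-, with 621 higher (3.11%) and 622 lower (3.12%). The directions were even in number and uneven in size. Among changes below 1 on the log2 scale 335 genes were higher and 200 lower, between 1 and 2 the counts were 256 and 306, between 2 and 3 they were 29 and 82, and beyond 3 they were 1 and 34. The falls also lay among more abundant transcripts: in the fifth of genes with the highest mean intensity 237 were higher and 328 lower, and in the fifth below it 232 and 168. The median over all genes was 0.00 on the log2 scale. Regardless of the test, the groups did not overlap for 4622 genes in the upward direction (23.2%) and for 3632 in the downward direction (18.2%). The even split rests on single arrays, since the share of calls that were higher was 28.8% or 29.7% when MIWI +/- replicate 1 or 2 was left out and 59.2% when MIWI -/KI replicate 1 was. Of the 1243 genes, 295 passed in each of the 8 fits that leave out 1 array, 83 higher and 212 lower.

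**Figure D1:**
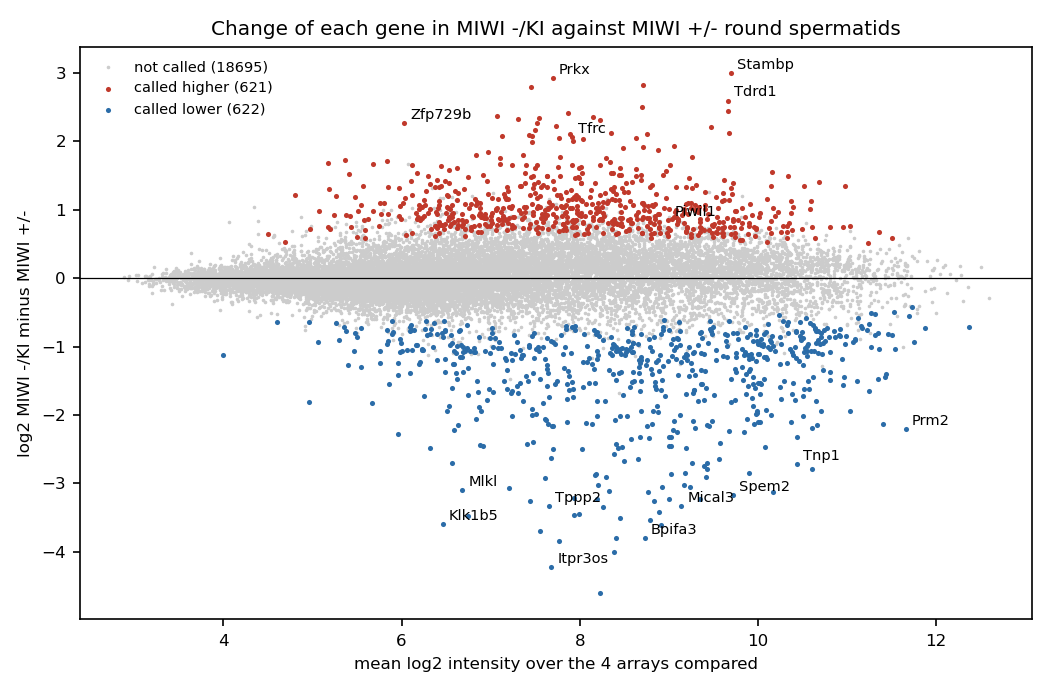
Each point is 1 of 19938 genes, with its mean log2 intensity over the 4 arrays on the horizontal axis and its log2 difference between MIWI -/KI and MIWI +/- on the vertical axis; red and blue points passed the test. The highest red point is Stambp (8.01-fold higher) and the 622 lower genes reach -4.60 (1700012A03Rik).

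Among characterised genes the falls were led by Itpr3os (-4.22), by its name the opposite strand of Itpr3, Nudt16l2 (-4.00), Bpifa3 (-3.80), Dydc2 (-3.80), Klk1b8 (-3.69), Acte1 (-3.61) and Klk1b5 (-3.59). The genes described next lie further down that order and were picked after their values were seen. Mical3, an enzyme that oxidises actin filaments, fell from 1881 and 1709 on the MIWI +/- arrays to 189 and 166 on the MIWI -/KI arrays, a 10.1-fold fall (log2 difference -3.34, SE 0.14, adjusted p = 7.35e-05). Tppp2, of the tubulin polymerisation promoting family, went from 601 and 681 to 69.5 and 58.3 (10.1-fold, -3.33, SE 0.17). Fscn3, a testis fascin of the actin-bundling family, went from 1821 and 1361 to 216 and 130.1 (9.39-fold, -3.23, SE 0.26). These 3 genes were chosen among called genes whose groups do not overlap, so the separation of their arrays adds no support. Spem2 and Spem1 are neighbouring genes of spermatid maturation. Spem2 was read at 2629.9 and 2435 in MIWI +/- and at 322 and 243 in MIWI -/KI (-3.18, SE 0.19), and Spem1 at 2119 and 1659 in MIWI +/- and 319.5 and 196 in MIWI -/KI (-2.90, SE 0.24).

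Agpat2, an acyltransferase of phospholipid synthesis, was read at 1529 and 1302 in MIWI +/- and at 151 and 144 in MIWI -/KI (9.57-fold lower, adjusted p = 8.73e-05). Phospho1, a phosphatase of phosphocholine and phosphoethanolamine, went from 874 and 633 to 85.9 and 75.5 (9.24-fold). Mlkl, the effector of necroptosis, went from 274 and 329.8 to 34.2 and 36.2 (8.55-fold). Ubqlnl, a ubiquilin-like gene of the testis, went from 1982 and 2009 to 217 and 209.8 (9.36-fold). Noxred1 (-3.06), Cstl1 (-3.12), Tex46 (-3.03) and the zinc transporter gene Slc30a4 (-2.19) fell as well. Each of the named falls of these 2 paragraphs passed in all 8 fits that leave out 1 array. In MIWI +/KI, Mical3, Fscn3 and Agpat2 lay between the compared groups. Mical3 was read there at 1137 and 1114, Fscn3 at 951 and 907 and Agpat2 at 852 and 772.

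The rises among characterised genes were led by Stambp (8.01-fold), followed on the log2 scale by Prkx (2.93), Fastkd1 (2.79), Tdrd1 (2.60), Lrrc61 (2.50), Tex101 (2.45) and Slc41a1 (2.42), and then by Usp51 (2.37), Lypd10 (2.36), Gadd45b (2.34), Asprv1 (2.33) and Hmmr (2.32). Smaller rises beyond 2 on the log2 scale, picked after their values were seen, are given with their arrays. Trh, the precursor of thyrotropin-releasing hormone, was read at 87.8 and 79.4 on the MIWI +/- arrays and at 498 and 326 on the MIWI -/KI arrays (4.83-fold, log2 difference 2.27, SE 0.29, adjusted p = 0.00466). Mtif2, the mitochondrial translation initiation factor, rose from 291 and 374 to 1261 and 1863 (4.64-fold, adjusted p = 0.0013). Tapbpl, which edits peptides on MHC class I, rose from 86.4 and 84.1 to 410.0 and 357 (4.49-fold, adjusted p = 0.000433). The named rises were likewise chosen among called genes whose groups do not overlap, so the separation of their arrays adds no support. Mcm8, a helicase of meiotic recombination, rose from 116 and 112 to 436 and 553 (4.3-fold). Tfrc, the transferrin receptor that brings iron into cells, rose from 131 and 106 to 405 and 603 (4.2-fold). Exoc8, a subunit of the exocyst that tethers secretory vesicles, rose from 143 and 117 to 507 and 561 (4.12-fold). These 6 genes passed in all 8 fits that leave out 1 array, as did Tmem106c (2.23), Arhgap20 (2.13), Lypd11 (2.11) and Abitram (2.05). Zfp729b (2.27) did not pass without either MIWI +/- array.

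**Figure D2:**
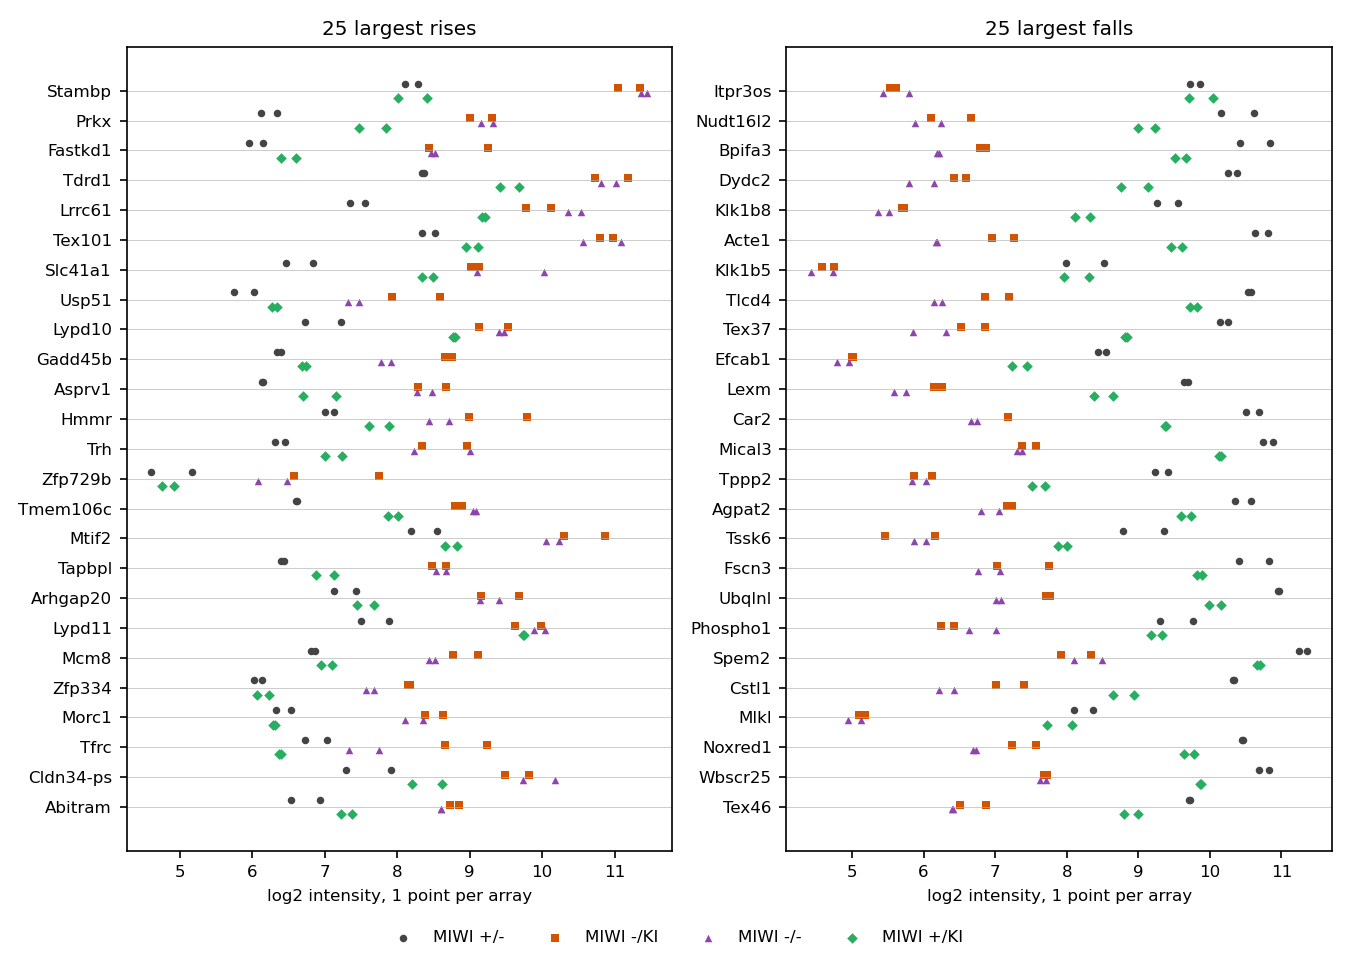
Log2 intensity on each of the 8 arrays for the 25 largest rises (left) and the 25 largest falls (right) in MIWI -/KI against MIWI +/- among characterised genes; symbols and colours give the genotype. By the way these genes were chosen the MIWI -/KI and MIWI +/- arrays do not overlap. MIWI -/- arrays lie mostly beside MIWI -/KI, while Tfrc (215 and 161 in MIWI -/-) and Gadd45b (220 and 242) are among the rises that lie lower there. Several falls also lie lower there, such as Acte1 (72.6 and 72.5 against 125 and 153 in MIWI -/KI) and Bpifa3 (73.0 and 74.0 against 117 and 111). Others lie higher in MIWI -/-, such as the fall Phospho1 (99.0 and 129 against 85.9 and 75.5) and the rise Lrrc61 (1304 and 1487 against 1111 and 879). No gene passed the threshold between MIWI -/KI and MIWI -/-.

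Among the lists of gene functions described here, the packaging of the haploid genome had the largest share of falls. Of 23 genes of sperm histone exchange and packaging, 11 fell and none rose, with a median log2 difference of -0.84 against 0.00 over all genes. The protamine genes were read at 4185 and 2808 (Prm1) and 7285 and 6648 (Prm2) in MIWI +/-, and at 963 and 619 (Prm1) and 1837 and 1233 (Prm2) in MIWI -/KI. Prm3, an acidic protamine-like protein of the cytoplasm, fell by 4.23-fold, from 1378 and 1579.5 to 383 and 317. The linker histone gene H1f7 fell from 1856 and 1913 to 585 and 452 (-1.87, SE 0.15). H2bl1, a histone variant gene, went from 2111 and 2052 to 499 and 449 (-2.14, SE 0.14), and the histone gene H2al2a, which has near-identical copies that the array may not separate, stood at -1.67. Camk4, a kinase that phosphorylates protamine, was read at 763 and 791 in MIWI +/- and 327 and 343 in MIWI -/KI (-1.21, adjusted p = 0.00327), and Cdyl, a chromodomain protein of histone acylation, at 547 and 535 in MIWI +/- and 257 and 304 in MIWI -/KI (-0.95, adjusted p = 0.0228). In MIWI +/KI, Camk4 was read at 384 and 339.6 and Cdyl at 309 and 270.2, near their MIWI -/KI values (log2 differences of MIWI -/KI from MIWI +/KI -0.11, adjusted p = 0.753, and -0.05, adjusted p = 0.922), whereas Prm2 was read there at 5987 and 5897 (-1.98, adjusted p = 0.0026). Brdt, the bromodomain reader of hyperacetylated spermatid histones, differed by 0.18 (adjusted p = 0.734). With 1 array left out the number of falls stayed between 9 and 12.

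Defining markers of elongating spermatids, the later cells that a round spermatid fraction can hold, moved with these genes. Of 20 such markers, 17 fell and none rose, and 6 of the 20 are also among the packaging genes. Their summed intensity was 61290 to 65590 in MIWI +/-, 45250 to 47030 in MIWI +/KI, 23420 to 24590 in MIWI -/KI and 21250 to 22200 in MIWI -/-. The falls numbered between 12 and 17 with 1 array left out. Of the 20 round spermatid markers, the kinase gene Tssk2 (-0.99) fell and none rose, with a median of 0.03. In RNA of pooled cells, fewer cells of a type and less RNA of a gene per cell cannot be told apart, and the part of the elongating spermatid markers in the other falls was not tested.

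All promoters with a given sequence were searched for the cyclic AMP response element, the DNA site of CREM, in the 250 bases before each transcript start of RefSeq (GRCm38.p6). The searched letters were TGACGTCA, which reads the same on both strands, and TGANGTCA, which includes it, allows any base at the middle position named N and was searched on both strands. TGANGTCA was chosen after the data had been seen. Both sets of sequences below are shown because they hold these letters, in capitals, in genes that fell; the first 5 are elongating spermatid genes with a variant of the element and the last 2 are falling genes with the full element. Each holds up to 60 bases on either side of the first match, is cut off at the transcript start where that comes sooner, and is read 5′ to 3′ on the strand of the gene.
Tnp1: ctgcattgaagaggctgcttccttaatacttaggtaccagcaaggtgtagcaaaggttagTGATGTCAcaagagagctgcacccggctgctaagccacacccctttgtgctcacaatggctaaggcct
Prm1: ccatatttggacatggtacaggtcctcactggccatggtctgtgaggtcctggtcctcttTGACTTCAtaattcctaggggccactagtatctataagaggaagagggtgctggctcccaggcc
Hmgb4: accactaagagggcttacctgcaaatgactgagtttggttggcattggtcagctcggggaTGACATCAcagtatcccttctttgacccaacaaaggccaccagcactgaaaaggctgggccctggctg
Gapdhs: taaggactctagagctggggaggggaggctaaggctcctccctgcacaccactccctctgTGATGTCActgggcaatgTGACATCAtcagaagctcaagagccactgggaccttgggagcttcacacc
Akap4: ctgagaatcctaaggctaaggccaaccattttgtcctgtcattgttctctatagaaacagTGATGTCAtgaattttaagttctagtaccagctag
Fam187b: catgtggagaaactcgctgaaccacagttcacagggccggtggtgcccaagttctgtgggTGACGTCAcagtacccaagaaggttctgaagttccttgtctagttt
Csnk1g2: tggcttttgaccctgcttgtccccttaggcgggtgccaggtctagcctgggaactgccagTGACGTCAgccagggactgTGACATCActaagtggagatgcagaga

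The windows lie at chr1:73015926-73016053 (- strand) for Tnp1, a transition protein gene, at chr16:10796824-10796947 (- strand) for Prm1, at chr4:128260902-128261029 (- strand) for Hmgb4, a spermatid HMG-box gene, at chr7:30743708-30743835 (- strand) for Gapdhs, the sperm form of a glycolytic dehydrogenase, and at chrX:7067420-7067514 (+ strand) for Akap4, the main anchoring protein of the fibrous sheath. Those with the full element lie at chr7:30976954-30977059 (+ strand) for Fam187b (-1.78 on the log2 scale) and at chr10:80629550-80629655 (+ strand) for Csnk1g2, a casein kinase gene (-1.62). Promoter sequences were given for 15562 of the 19938 genes. The full element TGACGTCA stood in 2.34% of all promoters, in 3.16% of the 506 promoters of genes called higher and in 4.1% of the 512 promoters of genes called lower. It stood in 0 of the 90 promoters of genes that fell by at least 4-fold and in 0 of the 16 promoters of elongating spermatid markers. The broader TGANGTCA stood in 7.72% of all promoters, in 8.3% of those of genes called higher and in 21.7% of those of genes called lower, 111 of 512. Among genes that fell by at least 4-fold it stood in 16 of 90 promoters, and among the elongating spermatid markers in 9 of 16. The shorter TGACG, which opens the full element, was searched as well. It stood in 24.1% of all promoters, in 33.2% of those of genes called higher and in 26.2% of those of genes called lower. TGACG was thus more frequent among the rises than among the falls. It stood in 16 of 90 promoters of genes that fell by at least 4-fold and in 2 of 16 of the elongating spermatid markers. The CCAAT box stood in 38.9% of all promoters, 45.3% of those of genes called higher and 38.7% of those of genes called lower. A match is a description of the letters and not of binding.

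Genes of haploid transcription and of the outer structures of the tail were called lower more often than higher. Of 30 CREM targets and genes of haploid transcription, 9 fell and 1 rose, with a median of -0.15. Hmgb4 went from 2084 and 2119 to 755 and 649 (-1.59, SE 0.16), and Fhl5, the coactivator of CREM, stood at -0.92 (adjusted p = 0.012). Crem itself differed by 0.14 (adjusted p = 0.781). The kallikrein Klk1b24 (1.72), at 28.5 and 34.9 in MIWI +/- and 88.1 and 122 in MIWI -/KI a weakly read member of a family of near-identical genes, was the 1 that rose. Of 31 genes of the fibrous sheath and outer dense fibres, the sheath and cables around the tail, 10 fell and 1 rose, with a median of -0.30. Spata18 fell from 4325 and 3881 to 1017 and 1132 (3.82-fold) and Akap4 from 3052 and 2752 to 1068 and 1167 (2.6-fold). Odf1, a main protein of the outer dense fibres, fell less, from 3009.8 and 3198 to 1801 and 1889 (1.68-fold), and the large sheath gene Fsip2 rose (0.74). Of these 31 genes 7 are also elongating spermatid markers, and of the 30 haploid transcription genes 4 are. Leaving out MIWI +/- replicate 1 or 2 lowered the falls to 2 or 1 in haploid transcription and to 3 in the sheath and fibres, where leaving out either MIWI +/KI array gave 6.

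Among genes of the axoneme, the motor core of the tail, the calls were mostly rises. Of 43 genes of axonemal dyneins and motility, 7 rose and none fell, all 7 of them dynein heavy chains. Dnah7b rose from 712 and 759.9 to 1361 and 1994 (1.16, SE 0.19) and Dnah2 from 478 and 456 to 955 and 1014 (1.07, SE 0.14). The others were Dnah7a (0.97), Dnah10 (0.93), Dnah1 (0.71), Dnah8 (0.59) and Dnah3 (0.58). The list's median was 0.22. Of 29 Cfap genes, proteins of cilia and flagella, 5 rose, led by Cfap54 of the central pair apparatus (708 and 717 to 1666 and 1976, 1.35), and Cfap126 fell (-0.90), with a median of 0.38. Of 35 genes of intraflagellar transport and the BBSome, Ift20 (0.76), Dync2h1 (0.73) and Ift88 (0.60) rose, with a median of 0.22. These rises were small and rested on single arrays. The dynein count was 1 when MIWI +/- replicate 1 was left out and 0 when replicate 2 was, 2 without MIWI -/KI replicate 2, 2 without either MIWI +/KI array and 13 without MIWI -/KI replicate 1, and the Cfap count was 0 without either MIWI +/- array, 1 without MIWI -/KI replicate 2 or either MIWI +/KI array, and 10 without MIWI -/KI replicate 1. The transport count was 0 without any 1 of the MIWI +/- arrays, the MIWI +/KI arrays and MIWI -/KI replicate 2, and 7 without MIWI -/KI replicate 1.

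**Figure D3:**
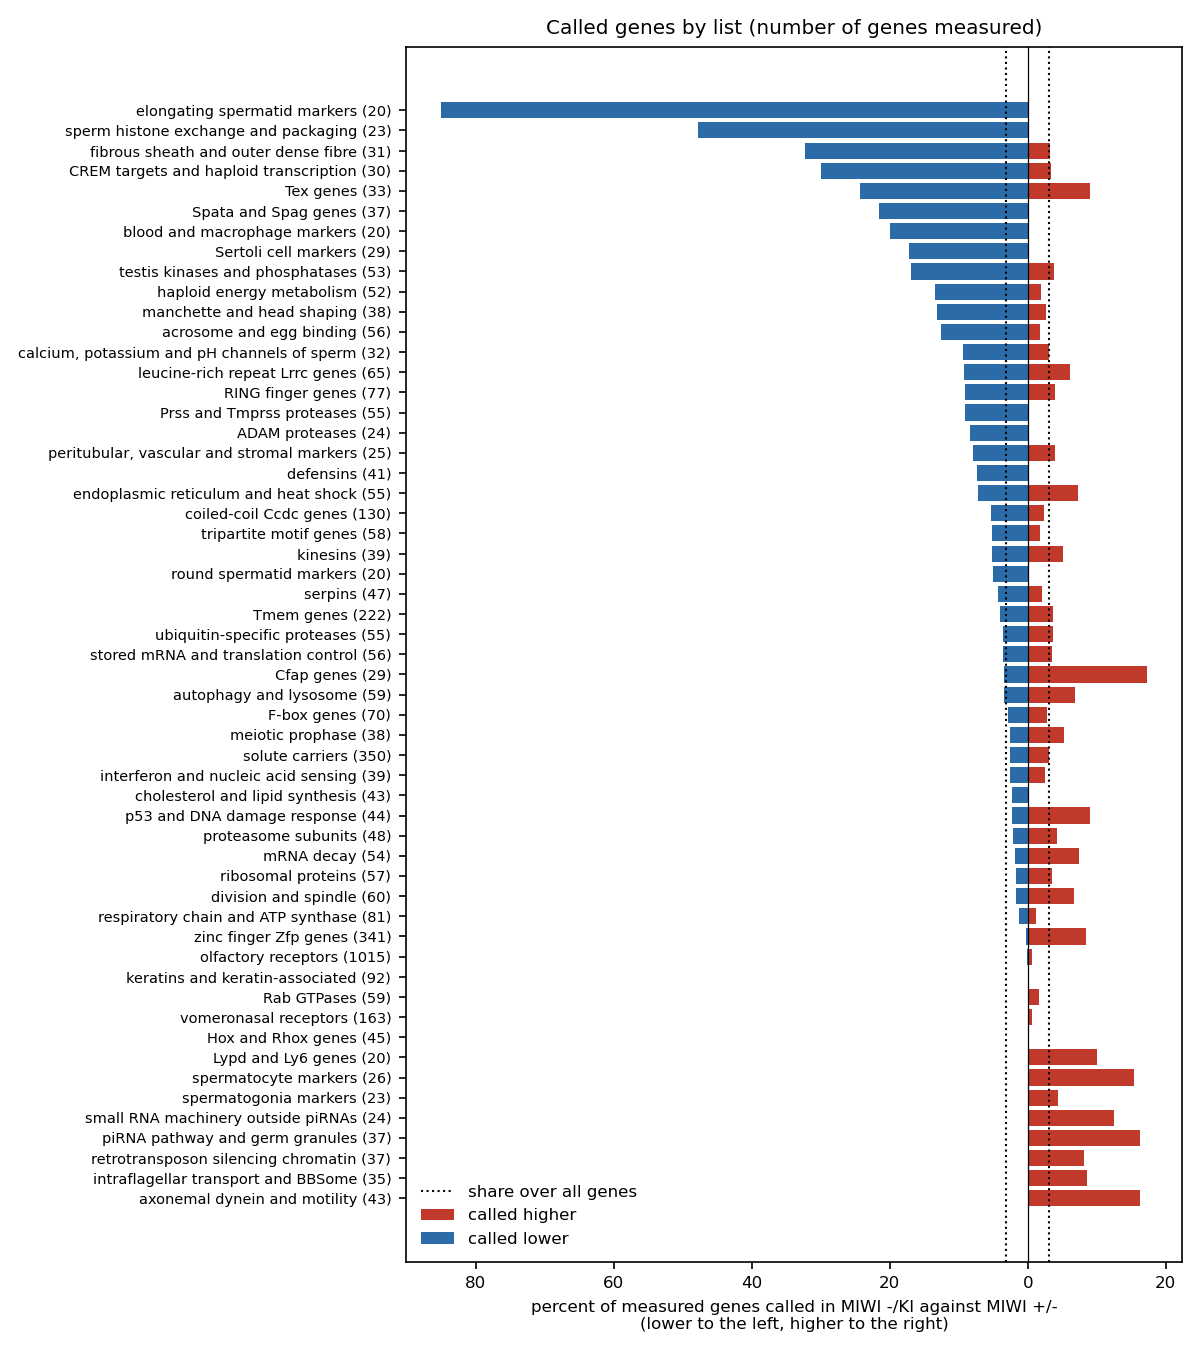
Bars give the percent of the measured genes of each list that passed the test in MIWI -/KI against MIWI +/-, lower to the left and higher to the right, for lists of at least 20 measured genes; dotted lines mark the shares over all genes (3.11% higher, 3.12% lower). The elongating spermatid markers (17 of 20 lower) and the packaging genes (11 of 23 lower) reach farthest to the left.

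Head shaping, the acrosome and motility signalling each had a few called genes. Of 38 genes of the manchette, the microtubule skirt that shapes the nucleus, and of head shaping, 5 fell and 1 rose, with a median of 0.06. Beside Spem1 they were Pmfbp1, which joins head and tail (2285 and 2216 to 1027 and 1119, -1.07), Lrrc8b (3612 and 3377 to 1769 and 1727), Hook1 of the manchette (-0.72) and Spata6 of the connecting piece (-0.59), and Ccdc42 rose (0.83). Of 56 genes of the acrosome and egg binding, 7 fell and 1 rose, with a median of 0.04. Sppl2c, an intramembrane protease, fell from 1664 and 1527 to 593 and 363 (3.44-fold), the serine protease gene Prss55 from 1538 and 1710.1 to 676 and 531 (2.71-fold), and the actin-like gene Actl9 from 1986 and 1962 to 867 and 801 (2.37-fold). Of 32 genes of sperm ion channels and pH control, 3 fell and 1 rose: the sperm sodium pump gene Atp1a4 (-1.03), the egg-activating phospholipase gene Plcz1 (-0.77) and the carbonic anhydrase gene Car2 fell, and Trpc1 (1.17) rose. When MIWI +/- replicate 1 or 2 was left out, the falls were 1 and 2 in head shaping, 4 and 2 in the acrosome list, and 2 and 2 among channels. Of 24 ADAM protease genes 2 fell, Adam21 (-1.06) and Adam1a (-0.76), and neither call held without either MIWI +/- array. The shares called lower were 13.2% in head shaping, 12.5% in the acrosome list, 9.4% among channels and 8.3% among ADAM genes. These lists are bright, with median mean log2 intensities of 9.562, 9.773, 9.446 and 8.925. Of the 3988 genes with a mean of 8.459 to 12.6, 328 fell. The channel and ADAM shares are thus near that of equally bright genes.

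Energy metabolism and signalling enzymes of haploid cells fell in part. Of 52 genes of haploid energy metabolism, 7 fell and 1 rose, with a median of 0.03. Oxct2a, which lets sperm burn ketone bodies, fell from 4229 and 3973 to 656 and 532 (6.94-fold), Pkm, a pyruvate kinase, from 1676 and 1803 to 628 and 525 (3.03-fold), and Hk1, a hexokinase of glycolysis, from 3121 and 2861 to 1681 and 1531 (1.86-fold). Gapdhs went from 4205 and 4860.4 to 1704 and 1632 (2.71-fold). In each of these genes both MIWI -/KI arrays lay below both MIWI +/- arrays, as is likely for genes named because they passed the test. Tktl2, a transketolase-like gene, rose (1.33). Of 53 testis kinases and phosphatases, 9 fell and 2 rose. Ppp2r2b, a regulatory subunit of protein phosphatase 2A, fell from 825 and 806 to 146 and 145 (5.6-fold), Csnk1g2 from 2733 and 2620.5 to 1057 and 712 (3.08-fold) and Cdk16 from 799.8 and 825 to 258 and 274 (3.06-fold). Nek4 rose by 0.90 on the log2 scale beside the kinase gene Prkx. With 1 array left out the falls ranged from 4 (either MIWI +/- array) to 12 (without MIWI -/KI replicate 1) in energy metabolism and from 6 (without MIWI +/- replicate 2) to 12 among kinases and phosphatases.

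The piRNA pathway itself moved upward where it moved. Of 37 genes of the pathway and of germ granules, 6 rose and none fell (16.2% called higher against 3.11% of all genes), with a median of 0.18. Among the 6 is Piwil1, whose alleles define the genotypes. The median mean log2 intensity was 8.859 in this list and 9.491 among spermatocyte markers. Rises were more frequent among genes this bright than among all genes: of 3988 genes with a mean of 8.459 to 12.6, 237 rose. The share of all genes is therefore a low reference for both lists. Of 26 spermatocyte markers 4 rose (15.4%) and none fell, and 2 of the 4, Piwil2 and Tdrd9, belong to both lists; the part of spermatocytes in these rises was not tested. Tdrd1, a Tudor-domain scaffold of germ cell piRNA bodies, was read at 332 and 326 in MIWI +/- and at 1699.5 and 2332 in MIWI -/KI. Morc1, needed for retrotransposon silencing in the male germ line, was read at 80.2 and 92.5 in MIWI +/- and 333 and 395 in MIWI -/KI. Piwil2, the gene of the PIWI protein MILI, was read at 549 and 506 in MIWI +/- and 1013 and 1142 in MIWI -/KI (2.04-fold, adjusted p = 0.00545). The RNA helicase gene Tdrd9 rose from 603 and 563 to 917 and 1026 (1.66-fold), and Henmt1, which methylates piRNA ends, from 454 and 421 to 736 and 789.6 (1.74-fold). The remaining rise is that of Piwil1. Some other genes of the pathway did not pass: Tdrd6 differed by 0.37 (adjusted p = 0.207), Ddx4 by 0.19, Mael by 0.03, and the piRNA helicase gene Mov10l1 by 0.25. Rises in the pathway numbered 3 when MIWI +/- replicate 1 was left out and 2 when replicate 2 was, 3 without either MIWI +/KI array, and 11 without MIWI -/KI replicate 1. Among the spermatocyte markers, leaving out MIWI +/- replicate 1 gave 2 rises and leaving out replicate 2 gave 1, leaving out a MIWI +/KI array gave 2 and leaving out MIWI -/KI replicate 1 gave 9.

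Neighbouring functions of RNA silencing and decay also had rises. Of 37 genes of retrotransposon-silencing chromatin, 3 rose and none fell (median 0.25): Cbx5, the gene of heterochromatin protein HP1 alpha, from 223 and 248 to 564 and 693 (2.66-fold), Pphln1, a subunit of the HUSH silencing complex (0.86), and Morc1. Of 24 genes of small RNA machinery outside piRNAs, 3 rose and none fell (median 0.37): Ago2, the slicing Argonaute of microRNAs, from 110.3 and 136 to 291 and 262 (2.25-fold), Lin28a (0.88) and Ago1 (0.80). Among 54 genes of mRNA decay, 4 rose and 1 fell (median 0.16). The exonuclease gene Xrn1 (219.6 and 196 to 387 and 686, 1.31) and the deadenylase genes Cnot8 (1.03) and Cnot1 (0.52) rose, as did Tob2 (0.64), and the decapping gene Dcp1a fell (-1.08). The shares called higher were 8.11%, 12.5% and 7.41% in the order of these lists, against 3.11% of all genes. Their median mean log2 intensities, 8.19, 7.74 and 8.185, lie in the fifth of genes next to the brightest, where 232 of 3987 rose. Without either MIWI +/- array the rises were 2 in silencing chromatin, 0 in small RNA machinery and 0 in decay, without either MIWI +/KI array they were 2, 1 and 1, and without MIWI -/KI replicate 1 they were 12, 7 and 8. Of 56 genes of stored mRNA and translation control, 2 rose, Elavl1 (0.79) and Elavl2 (0.76), and 2 fell, Cpeb3 (-1.53) and Msi2 (-0.64), a share of 3.57% in each direction and near that of all genes. Those rises numbered 0 without any 1 of the MIWI +/- and MIWI +/KI arrays, 1 when MIWI -/KI replicate 2 was left out and 10 when replicate 1 was, and the falls 1 or 0 without MIWI +/- replicate 1 or 2 and 1 without either MIWI +/KI array.

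Stress, DNA damage and folding genes were called in both directions. Among 44 genes around p53 and DNA damage, 4 rose (9.09%) and 1 fell (2.27%), with a median of 0.26. Over all genes 3.11% rose and 3.12% fell. Brca2, of homologous recombination, was read at 193 and 176 in MIWI +/- and at 578 and 833 in MIWI -/KI (3.76-fold), Atr, a checkpoint kinase gene that also acts in meiosis, at 1276 and 1253 in MIWI +/- and 2914 and 3562 in MIWI -/KI (2.55-fold), and Gadd45b, a stress-inducible gene, at 81.5 and 84 in MIWI +/- and 434 and 406 in MIWI -/KI (5.08-fold). Of 55 genes of the endoplasmic reticulum and of heat shock, 4 rose and 4 fell. Herpud1, of protein degradation at the endoplasmic reticulum, fell from 1924 and 1579 to 302 and 224 (6.7-fold) and the testis chaperone gene Hspa1l from 2663 and 2613 to 752 and 855 (3.29-fold). In the same compartment Dnajc3 rose from 646 and 685 to 1815 and 2101 (2.94-fold) and Edem1 from 153 and 149 to 441 and 404 (2.8-fold). Of 39 genes of interferon and nucleic acid sensing, the RNA-editing gene Adar rose (1.02) and the chemokine gene Ccl5 fell (-1.16), with a median of 0.02. Its share of 2.56% in each direction was below that of all genes, and neither call held without either MIWI +/- array. Without MIWI -/KI replicate 1 the rises were 11 in the DNA damage list, against 3 without either MIWI +/- array, and in the folding list both directions numbered 2 without either MIWI +/- array, and the rises numbered 2 without MIWI -/KI replicate 2 or either MIWI +/KI array.

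Of the gene families counted, the zinc finger genes had the most rises by number, though not by share. Of 341 Zfp genes, 29 rose (8.50%) and 1 fell, with a median of 0.10. Zfp334 rose from 70.3 and 65.3 to 291 and 283 (4.23-fold) and Zfp184 from 93.6 and 83.8 to 312 and 306 (3.48-fold), while Zfp706 fell (-1.53). Many of these genes lie in clusters of near-identical copies whose signals the array may share. The share of rises was higher in the Cfap genes (17.2%), the Klk1b kallikreins (1 of 9), the Lypd and Ly6 genes (2 of 20) and the Tex genes (3 of 33). Leaving out MIWI +/- replicate 1 or 2 gave 6 or 8 rises of Zfp genes, against 15 without either MIWI +/KI array and 66 without MIWI -/KI replicate 1. Families with a share of falls above the 3.12% of all genes included the Tex genes (8 fell and 3 rose of 33), the Spata and Spag genes (8 fell and none rose of 37), the Prss and Tmprss proteases (5 fell and none rose of 55, led by Prss58, 1472 and 1659 to 198 and 293) and the RING finger genes (7 fell and 3 rose of 77, led by Rnf44, 841 and 942 to 248 and 217), the Lrrc genes (6 fell and 4 rose of 65), the Klk1b kallikreins (3 fell and 1 rose of 9), the cystatins (3 fell of 19), the multicopy Slx and Ssty group (2 fell of 18) and the defensins (3 fell of 41). Near-identical copies make the values of the kallikreins, Slx and Ssty genes and defensins uncertain. The Spata and Spag falls numbered 3 without any 1 of the MIWI +/- or MIWI +/KI arrays, the RING finger falls 3 without MIWI +/- replicate 2, the Lrrc falls 3 without MIWI +/- replicate 1 and the cystatin falls 1 without MIWI +/- replicate 2. The Slx and Ssty falls and the defensin falls each numbered 1 without MIWI -/KI replicate 2 or any 1 of the MIWI +/- and MIWI +/KI arrays, and the defensin falls 5 without MIWI -/KI replicate 1. Usp50, a ubiquitin-specific protease, fell from 2462 and 2674 to 337 and 379 (7.19-fold). The large receptor and keratin families had few calls, with 7 of 1015 olfactory receptors, 1 of 163 vomeronasal receptors, 0 of 92 keratin genes and 0 of 45 Hox and Rhox genes. These families were weakly read, with median mean log2 intensities of 4.475, 4.213, 5.442 and 5.524 in that order. Calls were rare at such levels: of 3988 genes at 2.843 to 5.289, 12 rose and 12 fell, and of 3987 at 5.289 to 6.049, 32 rose and 28 fell. The few calls therefore do not set these families apart from other weakly read genes.

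Meiotic genes differed between the MIWI -/KI arrays. Over 38 genes of meiotic prophase the median difference from MIWI +/- was 0.04 in replicate 1 and 0.53 in replicate 2, and over 60 genes of division and the spindle it was -0.06 and 0.41. For all genes it was 0.07 and -0.07. The synaptonemal complex gene Sycp1 was read at 565 and 483 in MIWI +/- and at 578 and 1090.2 in MIWI -/KI, and Meiob, of meiotic strand invasion, at 186 and 188 in MIWI +/- and 142 and 370.4 in MIWI -/KI. The second of the MIWI -/KI values was the high one for both. Of the prophase genes 2 rose and 1 fell, and the rises numbered 14 without MIWI -/KI replicate 1 and 0 without replicate 2 or any other array. Of the division genes, 4 rose and 1 fell: Kif2c, a microtubule-depolymerising kinesin, fell from 2765 and 2654 to 1028 and 1114 (2.53-fold) and the cyclin gene Ccne1 rose from 153 and 161 to 329 and 369.6 (2.22-fold). Rises of this list numbered 17 without MIWI -/KI replicate 1 and 1 without either MIWI +/- array. Summed spermatocyte markers lay at 26430 to 27370 in MIWI +/- and at 27730 and 30420 in MIWI -/KI replicates 1 and 2, and the part of such cells in the meiotic values was not tested. The elongating spermatid markers differed little between the arrays, with medians of -1.46 and -1.59.

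**Figure D4:**
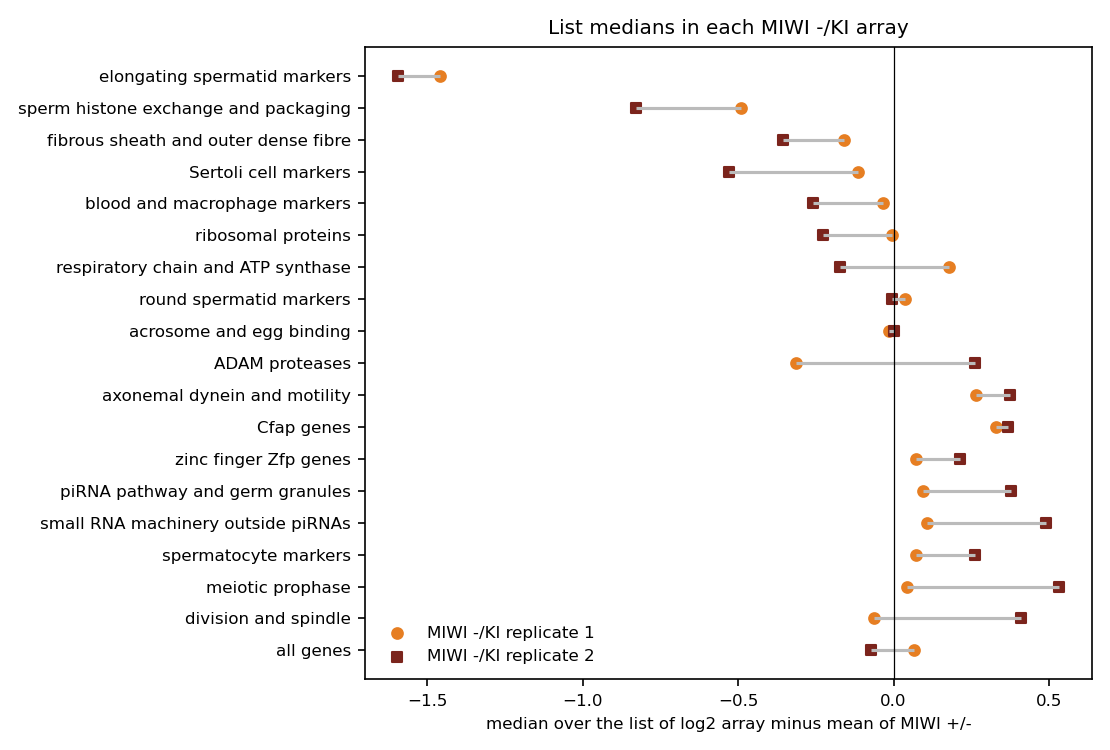
For selected gene lists, the median log2 difference from the mean of MIWI +/- is shown for MIWI -/KI replicate 1 (circle) and replicate 2 (square), joined by a line. Elongating spermatid markers lie at -1.46 and -1.59, while meiotic prophase genes lie at 0.04 and 0.53.

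Markers of somatic cells, which a gradient fraction can also hold, fell in part. Of 29 Sertoli cell markers 5 fell and none rose, with a median of -0.39, or -0.12 in MIWI -/KI replicate 1 and -0.53 in replicate 2. Their summed intensity was 4947 to 5230 in MIWI +/- and 3576 to 3927 in MIWI -/KI, and Nr0b1, a nuclear receptor gene of Sertoli cells, was read at 207 and 198 in MIWI +/- and 84.7 and 84.4 in MIWI -/KI. The falls numbered 0 without either MIWI +/- array, 1 without MIWI -/KI replicate 2, 2 without either MIWI +/KI array and 10 without MIWI -/KI replicate 1. Of 20 blood and macrophage markers 4 fell (sums of 3212 to 3452 and 2200 to 2373), of which 0 remained without either MIWI +/- array and 2 without MIWI -/KI replicate 2. A single blood and macrophage marker, Aif1, made up a large part of these sums. It was read at 1679.5 and 1577.5 in MIWI +/- and at 909 and 732 in MIWI -/KI. Of 25 peritubular, vascular and stromal markers 2 fell and 1 rose, and the smooth muscle actin genes parted. Actg2 fell from 1810.5 and 1969 to 319.5 and 287 and Acta2 rose from 188 and 165 to 394 and 379.8. Actg2 was read far above the rest of its list, at a mean log2 intensity of 9.33 against a list median of 6.39. It was read at 998 and 917 in MIWI +/KI and at 268 and 358 in MIWI -/-. Which cells of the fraction gave its signal was not tested, so its fall cannot be read as one of stromal cells. None of 12 Leydig cell markers passed.

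Set beside the null, the knock-in over null left no gene past the threshold. In MIWI -/KI against MIWI -/- limma called 0 of 19938 genes (0%), with 908 at an unadjusted p under 0.05. The spread between the MIWI -/KI arrays, a median of 0.28 on the log2 scale against 0.12 between the MIWI +/- arrays, limits this comparison, and a missed threshold does not show that the genotypes were alike. Piwil1 had the smallest p, with a difference of 1.99 (SE 0.17, adjusted p = 0.0816). Rpa1, a subunit of the protein that coats single-stranded DNA, was read at 600.2 and 792 in MIWI -/KI, 201 and 165 in MIWI -/- and 530.1 and 554 in MIWI +/-, a difference from MIWI -/- of 1.92 (SE 0.19, adjusted p = 0.0818). Exoc8 was read at 507 and 561 in MIWI -/KI and 228 and 200.4 in MIWI -/- (1.32, adjusted p = 0.235), Naaladl2 at 247 and 432 in MIWI -/KI and 82.5 and 98.7 in MIWI -/- (1.86, 0.536), and Tfrc at 405 and 603 in MIWI -/KI and 215 and 161 in MIWI -/- (1.41, 0.871). Gadd45b (0.86), the olfactory receptor gene Olfr213 (0.85) and Mir297b (1.72), a name of the array's annotation that was not matched to the microRNA here, complete the 8 smallest p values of characterised genes. The uncharacterised 3110040M04Rik (1.51, adjusted p = 0.0818) and Gm5893 (1.02, adjusted p = 0.871) had p values as small as some of these. In each of the 8 characterised genes both MIWI -/KI arrays lay above both MIWI -/- arrays. Their choice by the smallest p makes such a separation likely, and 2364 of 19938 genes were apart in this direction. Without MIWI -/KI replicate 1, 6 genes passed, all higher in MIWI -/KI: Piwil1, Rpa1, Naaladl2, Stox1, Exoc6 and 3110040M04Rik. Without the intensity trend Piwil1 and 3110040M04Rik passed, and with dim clusters left out these and Rpa1 did.

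Values of the packaging genes in the null lay close to or below those of the knock-in over null. Tnp1 was read at 574 and 511 in MIWI -/KI and at 451 and 244 in MIWI -/- (difference 0.70, SE 0.26), Tnp2 at 1558 and 1074 in MIWI -/KI and 788 and 578 in MIWI -/- (0.94, SE 0.20), and Prm2 at 1837 and 1233 in MIWI -/KI and 1011 and 927 in MIWI -/- (0.64, SE 0.18). For all 3 both MIWI -/KI arrays were above both MIWI -/- arrays, and no adjusted p was under 0.05. Over the 23 packaging genes the median difference was 0.13. For Prm1 the arrays overlapped, at 963 and 619 in MIWI -/KI and 628 and 372 in MIWI -/-. Against MIWI +/KI, which shares the MIWI -/KI arrays with the main comparison, 485 genes passed (2.43%), 227 higher (1.14%) and 258 lower (1.29%). Stated as difference from MIWI +/- first and from MIWI +/KI second, Mical3 gave -3.34 and -2.67, Tdrd1 2.60 and 1.41, Tfrc 2.07 and 2.56, and Lypd11 2.11 and 0.07. MIWI -/- against MIWI +/-, which shares the MIWI +/- arrays, gave 1222 genes (6.13%), 519 higher (2.6%) and 703 lower (3.53%), with -3.46 for Mical3, 2.55 for Tdrd1, 0.66 for Tfrc (adjusted p = 0.211) and 2.27 for Lypd11.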

How the data were processed

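Total RNA of purified round spermatids was measured on 8 arrays, 2 for each of 4 genotypes. The deposited table holds linear intensities per transcript cluster, which the authors made with RMA per the submitters' processing notes, with no version stated in those notes. RMA includes a quantile step, which gives arrays nearly equal distributions. Log2 of each intensity was taken. In 8 cells the value exceeded 100 times the median of the other arrays of its row, and these were treated as missing. Of 35512 clusters, 21789 have 1 gene symbol in the platform annotation, and 1 cluster per gene was read, that with the highest mean, for 19938 genes.

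One linear model in limma 3.58.1 (R 4.3.3) held a mean per genotype over all 8 arrays, with variances moderated along an intensity trend (residual degrees of freedom 4, prior 3.976). The two-sided p-values were adjusted by Benjamini-Hochberg across the 35512 clusters, and an adjusted p under 0.05 was called. SE is the moderated standard error, and rose, fell and called refer to this threshold. The steps were tested on simulated data. Named genes are the 25 largest rises and 25 largest falls among characterised genes whose groups do not overlap, which skipped 3 risers and 8 fallers of uncharacterised name, up to 6 called genes per list, Piwil1, the 8 characterised genes with the smallest p against MIWI -/-, and the 10 largest differences between the MIWI -/KI arrays in each direction. Further genes of a list, called or not, were added after their values were seen. The members and the gene lists were chosen with earlier results of these data known. Lists were described by counts and medians, with no list test. Alternatives were other samples in the fit, array weights, other scalings, filters and cluster rules, a replicate block and leaving out each array.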

Additional observations from a re-analysis of the deposited data

How the results depend on the processing

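The 1243 genes called in MIWI -/KI against MIWI +/- became 487 with only these 4 arrays in the fit, 715 with array weights, 2035 with a term for the 4 arrays set apart on the second principal component and 708 when a change of at least 2-fold was also asked. With 1 array left out the count ranged from 344 (without MIWI +/- replicate 2) to 2775 (without MIWI -/KI replicate 1). Of the 487, 486 were among the 1243, as were all 715 and 1196 of the 2775. Under the other alternatives that were run, which changed the trend, the missing cells, the centring, the quantile step, the dim clusters, the cluster rule or the offset, the count lay between 1093 and 1523. With the replicate number as a block it was 1144, of which 1083 were shared; the labels do not say that the numbers pair preparations, and the replicate differences of the compared genotypes correlated with r = -0.05 across genes. The rise of Piwil1 stayed at 0.85 on the log2 scale, but missed the threshold in the fit of the 4 arrays (0.8489, adjusted p = 0.0809) and with array weights (0.8489, 0.0906), and ranged from 0.81 to 0.88 with 1 array left out. MIWI -/KI against MIWI -/- gave 0 genes in the main analysis, 2 without the intensity trend, 3 with dim clusters left out and 0 to 6 with 1 array left out. It was not run in the fit of the 4 arrays, which holds no MIWI -/- array. No named gene past the threshold changed direction under these alternatives. The number of arrays and the wide spread of the MIWI -/KI pair limit small changes. The deposited table gives no background level, so weakly read transcripts could not be set against one.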

Other observations

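The genes named here are among the characterised genes with the largest differences between the MIWI -/KI arrays. Rpph1, the RNA of ribonuclease P, was read at 2258 and 692 on MIWI -/KI replicates 1 and 2, at 1512 and 965 in MIWI +/-, at 2689 and 1276 in MIWI -/- and at 1238 and 1056 in MIWI +/KI. Rmrp, the RNA of ribonuclease MRP, was read at 1328 and 366, 1084 and 520.3, 1669 and 459 and 486 and 459.6 in the same order, and the 5S ribosomal RNA gene n-R5s136 at 953 and 165, 1084 and 309, 1630.3 and 753 and 794 and 833. In MIWI -/KI, MIWI +/- and MIWI -/- the first array of each pair was the higher in all 3 of these short RNAs. Small subunits of the respiratory chain went the same way between the MIWI -/KI arrays, with Cox8c at 642 and 252 and Ndufb9 at 428 and 173. The opposite difference was seen in Tex11, a meiotic gene of the X chromosome (119 and 300.3), Meiob (142 and 370.4), the prefoldin gene Vbp1 (59.2 and 157), the splicing gene Prpf39 (67.9 and 174) and the kinetochore gene Cenpq (79.2 and 202). None of these 10 genes passed between MIWI -/KI and MIWI +/-, but a wide difference within a pair raises the SE and so works against a call. They were named for their difference between the arrays, which is a description.

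Clusters without a gene name held calls as well. Of 12102 clusters listed with no gene, 171 were higher and 112 lower in MIWI -/KI than in MIWI +/- (2.34% called), against 709 and 651 of the 21789 clusters with 1 symbol (6.24%). The largest fall of all genes was in 1700012A03Rik, an uncharacterised locus, chosen here after its values were seen, from 1480.2 and 1481 to 58.8 and 63.1 (-4.60, SE 0.19).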
